A study of Mus musculus with 16 samples.

Results

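Surface ectoderm and epidermal genes form a group of 39 genes of the outer and lining epithelia, chosen by gene symbol from knowledge of epithelial biology, with 1 probe set for each gene (the one with the highest mean log2 intensity over all arrays). All 39 were on the array, among 18193 genes measured. By known main use they were split into 18 genes of simple epithelium, 17 genes of stratifying epidermis, and 4 desmosome genes (Dsp, Dsg2, Dsc2 and Jup) of both kinds of epithelium. The split is a rough one, as some genes placed in the simple class, such as Cdh1 (E-cadherin), serve epithelia of both kinds. Members and classes were chosen with earlier results of these data known. The class counts and means below therefore describe these data and are not independent support for the split.

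The young embryo is covered by a single layer of surface ectoderm, a simple epithelium that carries the keratin pair Krt8 and Krt18, E-cadherin and claudin tight junctions. During stratification this layer comes under the control of the transcription factor p63, turns on the basal keratins Krt5 and Krt14, and builds desmosomes and hemidesmosomes that hold cells to one another and to the basement membrane. The same simple keratins and claudins are also used by other lining epithelia of the head, such as those of the pharynx, ear and nose.

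The samples were total RNA of mouse embryo heads, hybridised to 16 arrays of 1 colour, with 6 arrays of E9.5, 4 of E11.5 and 6 of E13.5, in a series on the developing brain. Per the labels the arrays of a stage are biological replicates; the labels name no strain, genotype, sex or treatment, and do not say how much tissue around the brain was included. All RNA was extracted with the same lipid tissue column kit. The E9.5 and E11.5 RNA was labelled with the one-cycle IVT kit of Affymetrix and the E13.5 RNA with the MessageAmp II-Biotin Enhanced kit of Ambion, so that wherever E13.5 is compared, stage cannot be told apart from kit. In whole heads, fewer cells of a type and less RNA per cell cannot be told apart either. Poly-A spike-in probe sets, which track sample handling, had means of 7.55 at E9.5 and 5.38 at E11.5. Stage therefore cannot be told apart from handling in the comparison of E11.5 with E9.5. The values are log2 of the deposited intensity, and each array had a lower quartile of 12 and a median of 32 in linear intensity (3.58 and 5.0 on the log2 scale). Against those marks, 22 of the 39 genes had a stage mean at or over the array median in every stage, and 6 in none. Arrays separated by stage on the first 2 principal components (65.3% and 21.2% of the variance), and on the third (3.17%) samples 13 and 15 lay away from the rest of E9.5.

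Between E9.5 and E11.5, simple epithelial genes fell. Among the 18 simple genes 12 fell and 1 rose, led by the keratins Krt18, Krt7 and Krt8. Of the 17 stratifying genes, 3 rose and 2 fell in the same comparison. Differences were tested with limma over all genes, and a gene was called at an adjusted p under 0.05. Over the whole group 5 genes rose, 16 fell and 18 were not called, where 57.8% of all genes were called, 31.0% as higher and 26.9% as lower. By at least 2-fold, 1 rose and 8 fell, against 6.08% and 4.79% of all genes. The median log2 difference was -0.15 over the 39 genes, -0.64 over the simple class and 0.07 over the stratifying class, beside 0.02 over all genes.

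Between E11.5 and E13.5 the stratifying genes rose. Of 17, 13 rose, 2 fell and 2 were not called, with Krt15, Krt14 and Krt5 far ahead of the others. Of the 18 simple genes, 6 rose, 2 fell and 10 were not called. Over all 39 genes 21 rose, 5 fell and 13 were not called, where 54.9% of all genes were called, 27.9% higher and 27.0% lower. At least 2-fold rises were found for 5 genes and falls for 0, against 5.78% and 3.8% of all genes. The median log2 difference was 0.41 over the group, 0.07 over the simple class and 0.63 over the stratifying class, beside 0.00 over all genes. Both consecutive comparisons use the E11.5 arrays, so their values are given side by side and not related to each other.

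**Figure D1:**
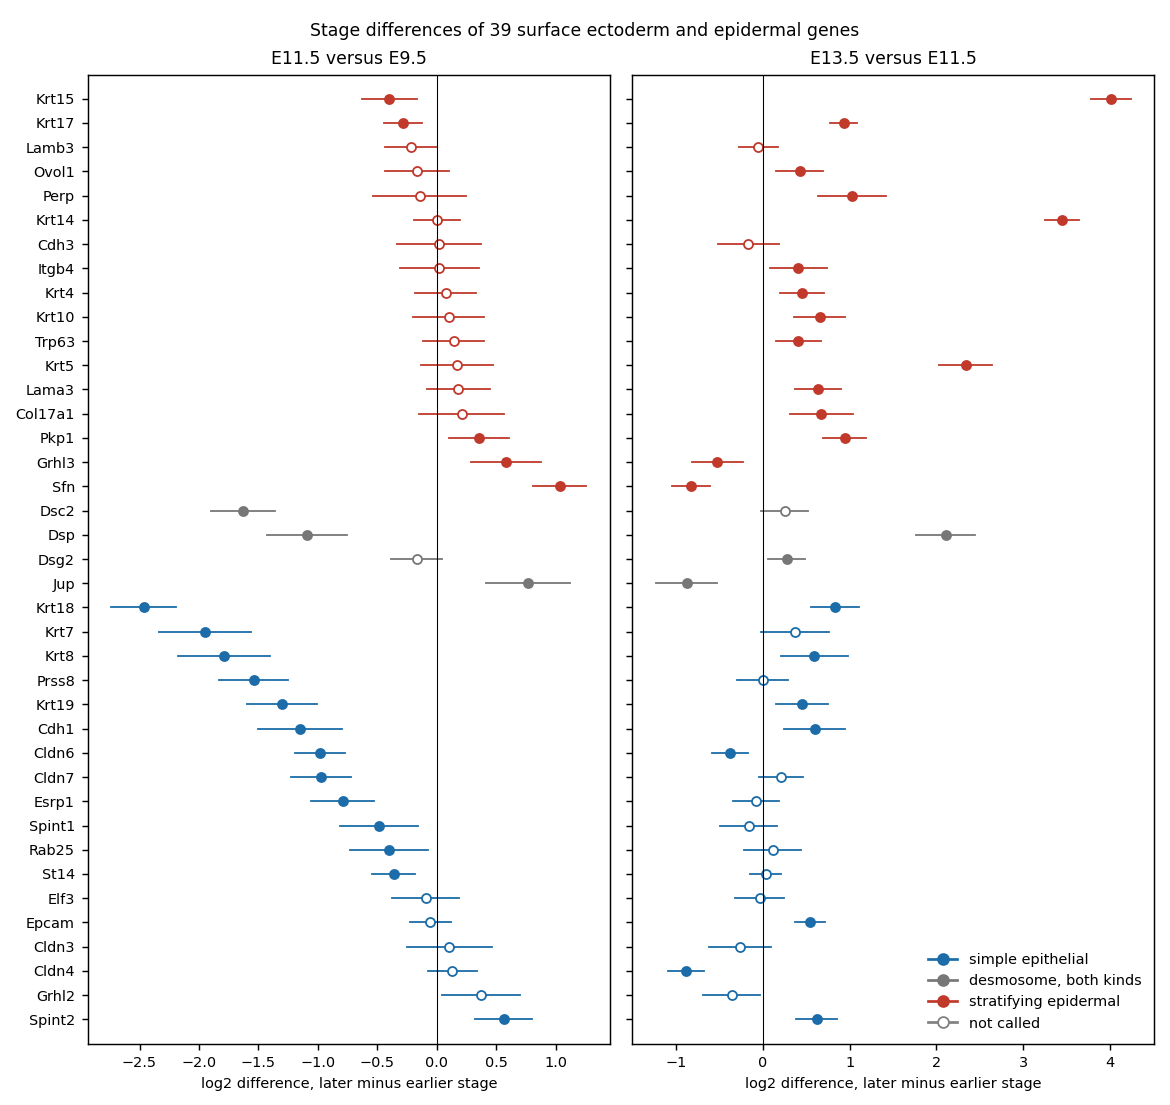
Log2 difference with its 95% interval for each of the 39 genes between consecutive stages, coloured by class, with open points for genes not called. In the left panel 12 of 18 simple genes lie below 0 as called points, and in the right panel 13 of 17 stratifying genes lie above 0, with Krt15 (4.01) and Krt14 (3.44) farthest out.

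From E9.5 to E13.5 as a whole the classes changed in opposite directions, and their mean log2 intensities came closer. Intensities of different probe sets share no common scale, so the gap between the classes is not a difference in expression level. The simple and stratifying class means were 6.697 and 4.598 at E9.5, and 6.087 and 5.565 at E13.5. Here 15 genes were higher, 14 lower and 10 not called, where 61.8% of all genes were called, 32.7% higher and 29.1% lower. In the simple class 2 were higher and 12 lower, and in the stratifying class 12 were higher and 1, Lamb3, was lower. By at least 2-fold 6 genes of the group were higher and 6 lower, against 9.93% and 7.08% of all genes.

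The mean log2 intensity over the simple class ran from 6.31 to 6.95 on the E9.5 arrays, from 5.86 to 6.03 at E11.5 and from 6.04 to 6.15 at E13.5. For the stratifying class it ran from 4.51 to 4.65, from 4.59 to 4.79 and from 5.52 to 5.64 in the same order. The simple class mean was thus higher on every E9.5 array than on any later array, and the stratifying class mean was higher on every E13.5 array than on any earlier one. The means of the 4 shared desmosome genes were 6.06 to 6.59, 5.65 to 6.04 and 6.16 to 6.34, lowest at E11.5 with no overlap with either other stage.

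**Figure D2:**
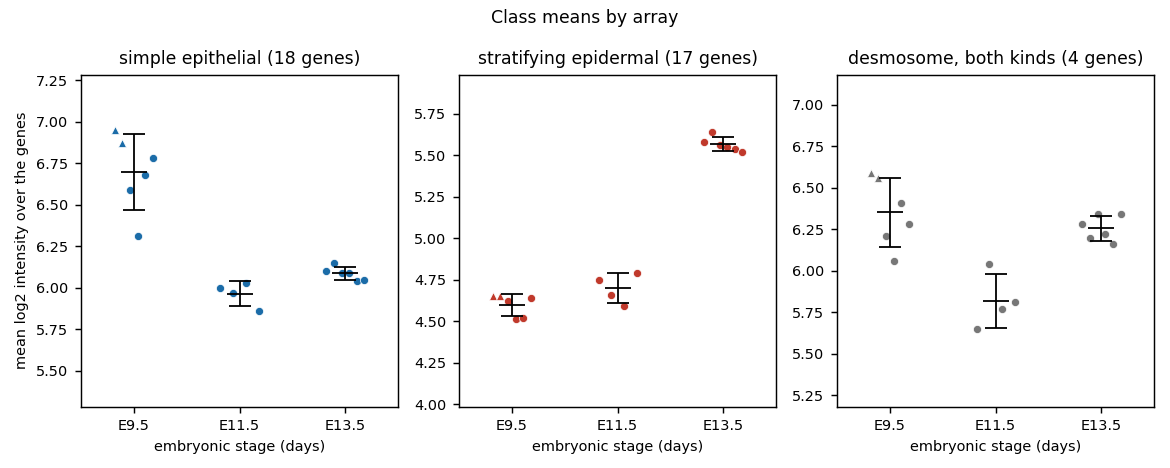
Mean log2 intensity over the genes of each class on each array (points; triangles are E9.5 samples 13 and 15), with the stage mean and SD in black; the vertical axes span 2 log2 units around each class mean. The simple class is highest at E9.5 (6.31 to 6.95) and the stratifying class at E13.5 (5.52 to 5.64).

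The simple keratins, the filament proteins of single-layered epithelium, all fell between E9.5 and E11.5, each by more than 2-fold. Krt18, the acidic partner in the pair, had log2 intensities from 7.85 to 8.72 (median 8.39) at E9.5, of 6.11, 5.86, 5.70 and 5.86 at E11.5, and from 6.60 to 6.85 (median 6.70) at E13.5. No stage overlapped another. Krt18 fell by 2.46 ± 0.13 (SE; 5.51-fold; adjusted p = 6.05e-12) and then rose by 0.83 ± 0.13 (adjusted p = 1.77e-05). Krt8, its basic partner, lay between 8.04 and 9.36 (median 8.46) at E9.5, at 7.18, 6.83, 6.63 and 6.75 at E11.5, and between 7.36 and 7.54 (median 7.44) at E13.5. Its stages did not overlap either, and its highest values were those of the E9.5 samples 13 and 15. Krt8 fell by 1.79 ± 0.19 (3.46-fold; adjusted p = 6.90e-08) and rose by 0.59 ± 0.19 (adjusted p = 0.0103).

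Krt7, a keratin of glandular and lining epithelia, ran from 5.86 to 7.16 (median 6.86) at E9.5, stood at 4.52, 5.0, 5.17 and 4.52 at E11.5, and ran from 5.0 to 5.32 (median 5.17) at E13.5. The E9.5 values lay above all later ones, and the later stages overlapped. Krt7 fell by 1.95 ± 0.19 (3.86-fold; adjusted p = 2.21e-08), and its later difference of 0.37 was not called (adjusted p = 0.102). It was called without E9.5 sample 19 or E11.5 sample 51 (adjusted p = 0.0156 and 0.0435) and in a fit of only the 2 stages compared (adjusted p = 0.0258). Krt19, the smallest of the acidic keratins, ran from 5.04 to 6.02 (median 5.78) at E9.5, stood at 4.32, 4.25, 4.46 and 4.52 at E11.5, and ran from 4.70 to 4.95 (median 4.83) at E13.5. Here too E9.5 lay above both later stages, and E13.5 above E11.5. Krt19 fell by 1.30 ± 0.14 (adjusted p = 1.37e-07) and rose by 0.45 ± 0.14 (adjusted p = 0.0108). At E13.5 all 4 simple keratins were still lower than at E9.5, by log2 differences of -0.85 (Krt19) to -1.63 (Krt18).

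**Figure D3:**
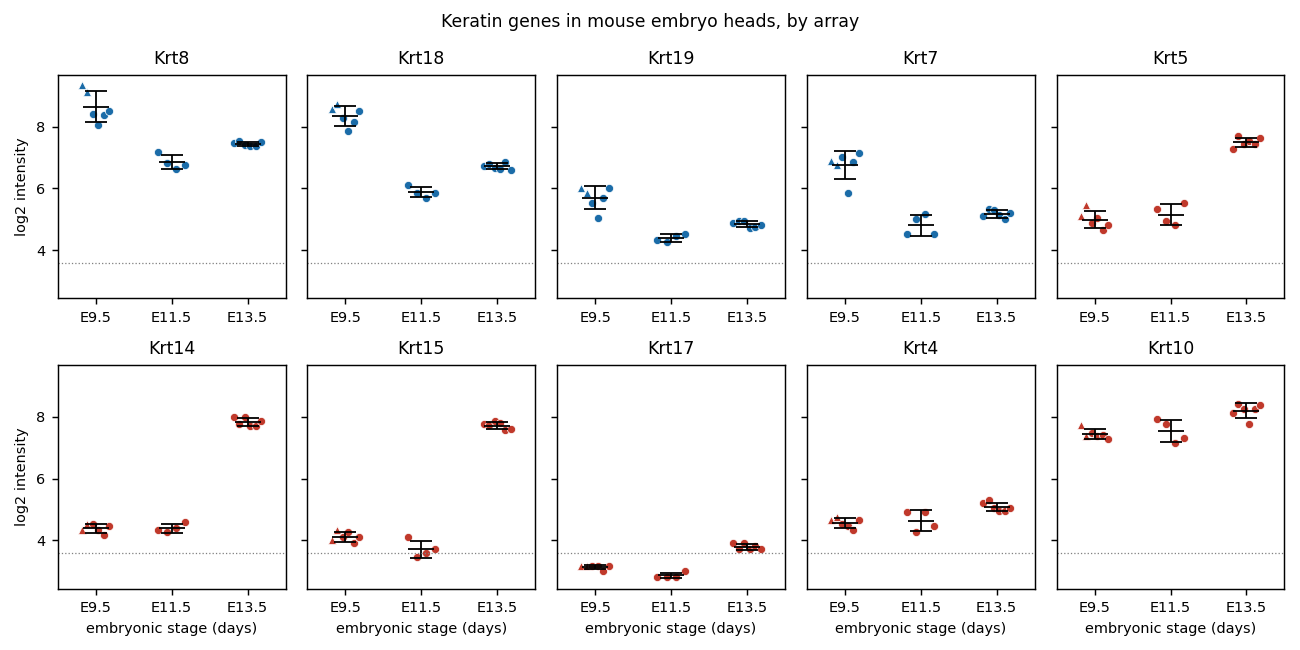
Log2 intensity of the 10 keratin genes on each array by stage (points; triangles are E9.5 samples 13 and 15; blue for simple, red for stratifying), with stage mean and SD in black and the array lower quartile (3.58) dotted. Krt8, Krt18, Krt19 and Krt7 are highest at E9.5, and Krt5, Krt14 and Krt15 rise at E13.5 to medians between 7.47 and 7.81.

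Krt8 and Krt18 lie next to each other on chromosome 15, with Krt5 in the same cluster of keratin genes. Their windows from 250 bases before to 50 after the start that the promoter table gives (RefSeq, GRCm38.p6) are shown with those of Dsp, the desmosome gene with the largest rise at E13.5, and Spint2, which rose at both steps. Capitals mark the E-box CACCTG on either strand, a sequence that the repressors of the Snail and Zeb families are known to bind. The windows are chr15:102004293-102004592 (minus strand) for Krt8, chr15:102027966-102028265 (plus) for Krt18, chr15:101712856-101713155 (minus) for Krt5, chr13:38151044-38151343 (plus) for Dsp and chr7:29281928-29282227 (minus) for Spint2.
Krt8: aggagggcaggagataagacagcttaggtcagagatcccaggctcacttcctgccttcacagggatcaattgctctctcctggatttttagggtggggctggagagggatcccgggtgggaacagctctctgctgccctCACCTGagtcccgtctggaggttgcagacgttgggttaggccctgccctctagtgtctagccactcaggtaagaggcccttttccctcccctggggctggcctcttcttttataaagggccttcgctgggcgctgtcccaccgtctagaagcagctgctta
Krt18: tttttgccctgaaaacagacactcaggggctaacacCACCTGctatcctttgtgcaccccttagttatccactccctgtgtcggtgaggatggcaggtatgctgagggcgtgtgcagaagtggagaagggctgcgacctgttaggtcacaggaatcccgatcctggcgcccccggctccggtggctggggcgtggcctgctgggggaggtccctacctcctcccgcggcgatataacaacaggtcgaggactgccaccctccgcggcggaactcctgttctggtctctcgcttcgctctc
Krt5: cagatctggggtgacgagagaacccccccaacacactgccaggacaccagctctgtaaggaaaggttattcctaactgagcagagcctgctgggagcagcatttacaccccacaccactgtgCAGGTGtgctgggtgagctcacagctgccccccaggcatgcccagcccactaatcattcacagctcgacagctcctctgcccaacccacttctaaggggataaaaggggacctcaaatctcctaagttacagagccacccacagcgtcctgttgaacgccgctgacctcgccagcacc
Dsp: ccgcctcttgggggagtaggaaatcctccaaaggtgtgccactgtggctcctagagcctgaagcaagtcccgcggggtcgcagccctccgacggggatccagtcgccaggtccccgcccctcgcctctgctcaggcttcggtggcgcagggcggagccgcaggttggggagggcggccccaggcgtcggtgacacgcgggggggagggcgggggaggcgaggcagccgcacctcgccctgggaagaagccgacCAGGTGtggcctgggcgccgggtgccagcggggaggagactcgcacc
Spint2: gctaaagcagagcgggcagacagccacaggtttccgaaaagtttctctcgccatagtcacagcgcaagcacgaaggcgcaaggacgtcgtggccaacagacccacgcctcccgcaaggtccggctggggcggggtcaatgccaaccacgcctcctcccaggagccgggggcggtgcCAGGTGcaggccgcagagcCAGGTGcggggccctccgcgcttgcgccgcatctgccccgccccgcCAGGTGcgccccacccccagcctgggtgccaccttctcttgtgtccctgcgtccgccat

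The promoter table held windows of 21 of the 39 genes, at whichever start it gives, and the E-box was found in 17 of them (81.0%), where 22.6% of the 27025 genes in the table and 20.2% of its 32851 windows held it. By class it was in 11 of 12 simple, 5 of 7 stratifying and 1 of 2 shared desmosome genes. The windows of Krt14, Krt10 and Lamb3 and a second window of Cldn7 are placed on starts more than 100 bases inside the annotated gene; without them 14 of 18 genes (77.8%) held the E-box, among them 10 of 12 simple and 3 of 4 stratifying genes. In the wider list of other epithelial genes 15 of 36 held it, against 1 of 10 mesenchyme genes and 0 of 7 neural genes. Median GC content was 59.0% over the windows of the group, 59.3% over mesenchyme, 58.7% over neural genes and 52.7% over all windows. Spint2, the only one of the 5 windows shown with more than 1 E-box, held 3, and the start on which its window is placed lies 82 bases inside the annotated gene.

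Every window shown carries the E-box. Between E9.5 and E11.5 Krt8, Krt18 and Dsp fell, Krt5 was not called and Spint2 rose. Between E11.5 and E13.5 all of these genes rose. The AP-2 sequence GCCNNNGGC was in 6 of 21 genes (Cldn3, Dsp, Krt18, Krt7, Spint1 and Spint2; 16.6% of all windows), TATAAA in 3 (Col17a1, Krt10 and Krt8; 13.6%), and the Grainyhead-like AACCGGTT in 0 (0.146%). Both strands were searched, no match of one motif was excluded for overlapping another, and a match is a description of letters. Of the repressors named, Snai1 fell by 0.47 ± 0.11 and then by 1.67 ± 0.11 (adjusted p = 0.000967 and 1.11e-10), and Snai2 rose by 1.05 ± 0.10 and was then not called (0.03, adjusted p = 0.821). Zeb1 rose by 0.60 ± 0.09 (adjusted p = 1.67e-05) and was then not called (-0.01), and Zeb2 fell by 1.54 ± 0.14 and rose by 1.79 ± 0.14 (adjusted p = 7.54e-09 and 8.58e-10). Snai2, Zeb1 and Zeb2 have 2, 4 and 5 probe sets, and only the brightest of each was used. The part of these factors in the keratin changes was not tested.

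The basal keratins of stratified epithelium rose at E13.5. Krt14, the acidic basal keratin, ran from 4.17 to 4.52 (median 4.39) at E9.5, stood at 4.32, 4.25, 4.39 and 4.58 at E11.5, and ran from 7.69 to 7.98 (median 7.81) at E13.5. The E9.5 and E11.5 values overlapped throughout, and all E13.5 values were far above them. Krt14 differed by 0.00 ± 0.09 at the first step (adjusted p = 1.0) and rose by 3.44 ± 0.09 at the second (10.9-fold; adjusted p = 2.89e-16). Krt5, its basic partner, ran from 4.64 to 5.46 (median 4.95), stood at 5.32, 4.95, 4.81 and 5.52, and ran from 7.27 to 7.69 (median 7.47). It showed the same separation of E13.5 from both earlier stages. Krt5 differed by 0.17 ± 0.15 (adjusted p = 0.339) and rose by 2.34 ± 0.15 (5.06-fold; adjusted p = 5.30e-11).

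Krt15, another acidic keratin of the basal layer, had the largest change of the group. Its values ran from 3.91 to 4.32 (median 4.09) at E9.5, stood at 4.09, 3.46, 3.58 and 3.70 at E11.5, and ran from 7.56 to 7.85 (median 7.75) at E13.5. Only E11.5 sample 33, at 4.09, lay within the E9.5 range. Krt15 fell by 0.40 ± 0.11 (adjusted p = 0.004) and rose by 4.01 ± 0.11 (16.1-fold; adjusted p = 3.03e-16).

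Krt17, a keratin of the periderm and of skin appendages, was dim in all stages, with linear intensities of 8 to 9, 7 to 8 and 13 to 15. On the log2 scale these were 3.00 to 3.17 (median 3.17) at E9.5, 2.81, 2.81, 2.81 and 3.00 at E11.5, and 3.70 to 3.91 (median 3.75) at E13.5, where a step of 1 in the rounded table is a large part of the value. E13.5 lay above the other stages and was still under the array median. Krt17 fell by 0.29 ± 0.08 (adjusted p = 0.00296) and rose by 0.93 ± 0.08 (adjusted p = 2.33e-09), and its second probe set was called in neither comparison. A probe set that names both Krt17 and Krt14, not used in the counts, had stage means of 4.23 ± 0.28, 3.95 ± 0.05 and 4.12 ± 0.17 (SD). The acidic keratins are close in sequence, and short probes cannot always separate them, so that the share of Krt14, Krt15 and Krt17 in these signals is uncertain.

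Krt4, known from the lining of the mouth and gullet, ran from 4.32 to 4.75 (median 4.58), stood at 4.91, 4.25, 4.91 and 4.46, and ran from 4.95 to 5.29 (median 5.04) in stage order. All E13.5 values were above all earlier ones by a small margin. It was not called at the first step (0.07) and rose by 0.45 ± 0.12 at the second (adjusted p = 0.00382). Krt10, a keratin of suprabasal, differentiating epidermis, ran from 7.28 to 7.75 (median 7.41), stood at 7.93, 7.77, 7.16 and 7.33, and ran from 7.77 to 8.41 (median 8.25). Its E11.5 and E13.5 values overlapped. All its values, those of E9.5 included, were over the array median of 5.0, and the tissue behind this early signal was not tested. Krt10 was not called at the first step (0.10) and rose by 0.65 ± 0.14 at the second (adjusted p = 0.000636).

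Among the adhesion genes, E-cadherin (Cdh1), the main cadherin of epithelia, fell and partly returned. Cdh1 ran from 6.77 to 7.65 (median 7.30) at E9.5, stood at 5.58, 6.58, 6.11 and 6.13 at E11.5, and ran from 6.60 to 6.81 (median 6.69) at E13.5. The E11.5 values lay below those of both other stages. Cdh1 fell by 1.15 ± 0.17 (2.22-fold; adjusted p = 6.52e-06) and rose by 0.60 ± 0.17 (adjusted p = 0.00495). P-cadherin (Cdh3), found in basal cells, was called in no comparison, with stage means of 5.25 ± 0.36, 5.27 ± 0.38 and 5.10 ± 0.12 (SD).

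Epcam, a surface adhesion protein of simple epithelia, had stage means of 7.88 ± 0.13, 7.82 ± 0.11 and 8.37 ± 0.07 (SD), and E13.5 did not overlap the earlier stages. It was not called at the first step (-0.05) and rose by 0.54 ± 0.08 at the second (adjusted p = 1.07e-05). That result held for 1 of its 2 probe sets: the other rose by 1.67 ± 0.17 and then fell by 0.78 ± 0.17, so that the direction of Epcam at either step depends on the probe set.

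The claudins, the strand proteins of tight junctions, went down or were not called at each step. Cldn6, a claudin of embryonic epithelia, fell at both, by 0.98 ± 0.10 (adjusted p = 4.67e-08) and by 0.38 ± 0.10 (adjusted p = 0.00298), with stage means of 7.54, 6.56 and 6.18. Cldn7 fell by 0.97 ± 0.12 at the first (adjusted p = 7.55e-07) and was then not called (0.21). Cldn4 was not called at the first step (0.13) and fell by 0.89 ± 0.10 at the second (adjusted p = 2.06e-07), from 5.0 to 5.39 on the E11.5 arrays to 4.09 to 4.39 on the E13.5 arrays. Cldn3 was called at neither, and its E11.5 sample 51 stood at 6.91 where the other E11.5 arrays lay between 5.73 and 5.98.

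The 6 desmosome genes did not move as a unit, with 2 higher and 2 lower at the first step and 4 higher and 1 lower at the second. Desmoplakin (Dsp), which ties keratin filaments to the desmosome, ran from 6.97 to 7.95 (median 7.29) at E9.5, stood at 6.46, 6.34, 5.98 and 6.58 at E11.5, and ran from 8.32 to 8.61 (median 8.43) at E13.5. The 3 stages did not overlap, with E11.5 lowest and E13.5 highest. Dsp fell by 1.09 ± 0.16 (2.13-fold; adjusted p = 8.25e-06) and rose by 2.11 ± 0.16 (4.31-fold; adjusted p = 1.07e-09). Desmocollin 2 (Dsc2), a desmosomal cadherin of both kinds of epithelium, ran from 4.95 to 5.61 (median 5.47), stood at 3.46, 4.00, 3.58 and 4.00, and ran from 3.81 to 4.17 (median 4.00). It stayed low after E9.5. Dsc2 fell by 1.63 ± 0.13 (3.1-fold; adjusted p = 1.48e-09) and its later difference of 0.25 was not called, while its second probe set was not called at the first step (-0.17).

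Plakoglobin (Jup), shared by desmosomes and adherens junctions, was highest at E11.5. It rose by 0.76 ± 0.17 (adjusted p = 0.000669) and fell by 0.88 ± 0.17 (adjusted p = 0.000179). Its E11.5 values of 6.61, 7.58, 7.32 and 6.71 all exceeded the E13.5 values, and E9.5 sample 16, at 6.66, lay among them. Dsg2, another desmosomal cadherin of both kinds of epithelium, was not called at the first step (-0.17) and rose by 0.27 ± 0.10 at the second (adjusted p = 0.0286). Its second probe set fell by 1.36 ± 0.11 and rose by 1.44 ± 0.11. The Dsg2 call was lost with the E13.5 title prefix as a random block (adjusted p = 0.123) and without any of E11.5 samples 33 and 52 and E13.5 samples B62E6K, B62E8K and B63E7K (adjusted p from 0.0533 to 0.105).

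Plakophilin 1 (Pkp1) and Perp, desmosome proteins of stratified epithelium, rose at E13.5. Pkp1 rose at both steps, by 0.35 ± 0.12 (adjusted p = 0.0157) and by 0.94 ± 0.12 (adjusted p = 1.19e-06), through stage means of 4.45, 4.81 and 5.75. Perp, a target of p63 in skin, ran from 5.58 to 6.67 (median 6.08) at E9.5, stood at 5.86, 5.93, 5.46 and 6.55 at E11.5, and ran from 6.78 to 7.35 (median 6.89) at E13.5. Only its E13.5 values were apart. Perp was not called at the first step (-0.15) and rose by 1.03 ± 0.19 at the second (2.04-fold; adjusted p = 9.48e-05).

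The membrane serine proteases matriptase (St14) and prostasin (Prss8), which act in a chain on epithelial surfaces, both fell between E9.5 and E11.5. Prss8 ran from 5.36 to 6.17 (median 5.77), stood at 4.32, 4.58, 4.17 and 3.91, and ran from 4.09 to 4.39 (median 4.25). E9.5 lay above both later stages, which overlapped. Prss8 fell by 1.54 ± 0.14 (2.91-fold; adjusted p = 1.14e-08) and St14 by 0.36 ± 0.09 (adjusted p = 0.00111), and neither was called at the second step (0.00 and 0.03).

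Their 2 Kunitz inhibitors moved in opposite directions. Spint1 fell by 0.49 ± 0.16 at the first step (adjusted p = 0.0113) and was then not called (-0.16). Spint2 rose at both steps, by 0.56 ± 0.11 (adjusted p = 0.000264) and 0.62 ± 0.11 (adjusted p = 0.000106), with both probe sets, through stage means of 7.31, 7.87 and 8.49. It was the only simple gene that rose at the first step. Rab25, a small GTPase of membrane recycling in epithelia, fell by 0.40 ± 0.16 (adjusted p = 0.0321). Without the E9.5 samples 13 and 15 the falls of Rab25 (-0.23, adjusted p = 0.159) and Spint1 (-0.36, adjusted p = 0.0609) were no longer called. The call of Rab25 was also lost without any 1 of E9.5 samples 13, 15 and 24 and E11.5 samples 36, 51 and 52 (adjusted p from 0.0557 to 0.13), and that of Spint1 without E11.5 sample 52 (adjusted p = 0.0579).

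The 4 genes that anchor basal cells to the basement membrane were not called at the first step, although Lamb3 was called lower without E9.5 sample 15 or 22 (adjusted p = 0.0432 and 0.0463). At the second, Lama3, a chain of the epidermal laminin, rose by 0.63 ± 0.13 (adjusted p = 0.00029), Col17a1, the transmembrane collagen of hemidesmosomes, by 0.67 ± 0.17 (adjusted p = 0.00239), and the integrin Itgb4 by 0.41 ± 0.16 (adjusted p = 0.0347). Lamb3, the partner of Lama3 in that laminin, was not called (-0.05) and was lower at E13.5 than at E9.5 by -0.27 ± 0.09 (adjusted p = 0.0179; 0.108 with the E13.5 title prefix as a random block). Lama3, Lamb3 and Col17a1 stayed under the array median in every stage. Lama3's second probe set was not called at the second step (0.16). Itgb4 was no longer called with the E13.5 title prefix as a random block (adjusted p = 0.107) or without E11.5 sample 51 (0.21, adjusted p = 0.213), nor without any of E11.5 sample 33 and E13.5 samples B62E7K, B62E8K, B63E5K and B63E6K (adjusted p from 0.0539 to 0.0712).

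None of the 6 regulators changed 2-fold between consecutive stages. Trp63, which encodes p63, the factor that sets the epidermal fate, had stage means of 5.58 ± 0.27, 5.72 ± 0.18 and 6.13 ± 0.14 (SD), was not called at the first step and rose by 0.41 ± 0.12 at the second (adjusted p = 0.00822). Its other 3 probe sets did not follow: the dimmest 2 fell by 0.50 ± 0.13 and 0.45 ± 0.11 at that step and the second was not called (-0.23). Grhl3, a Grainyhead-like factor of the epidermal barrier, rose by 0.58 ± 0.14 (adjusted p = 0.00137) and fell by 0.53 ± 0.14 (adjusted p = 0.00324).

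Grhl2, its relative in simple epithelia, had log2 differences of 0.37 and -0.36 that missed the threshold (adjusted p = 0.0522 and 0.0598). Both were called without the E9.5 samples 13 and 15 (0.55 and -0.36, adjusted p = 0.00394 and 0.0291). Leaving out any of E9.5 samples 13, 15 and 22 and E11.5 sample 52 called the first (adjusted p from 0.0178 to 0.0321), and any of E9.5 samples 15 and 19 and E11.5 sample 52 the second (adjusted p from 0.0187 to 0.0455). Its dimmest 2 probe sets fell at the first step, by 0.38 ± 0.13 and 0.61 ± 0.10, and the mean of all its probe sets gave -0.09 there (adjusted p = 0.468). Esrp1, a splicing factor of epithelial isoforms, fell by 0.79 ± 0.13 at the first step (adjusted p = 2.18e-05) and was then not called (-0.08). Ovol1, a zinc finger factor of epidermal differentiation, was dim throughout and rose by 0.42 ± 0.13 at the second step (adjusted p = 0.00836), a call its second probe set did not share (0.02) and that was lost with the title prefix as a random block (adjusted p = 0.0606). Elf3, an Ets factor of epithelial differentiation, was called in no comparison, with stage means of 5.66, 5.57 and 5.53.

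Sfn, the 14-3-3 sigma protein that restrains the cell cycle in differentiating keratinocytes, peaked at E11.5. It ran from 4.81 to 5.39 (median 5.04) at E9.5, stood at 6.02, 6.15, 6.32 and 5.91 at E11.5, and ran from 5.09 to 5.36 (median 5.30) at E13.5. The E11.5 values were above all others, and the outer stages overlapped. Sfn rose by 1.03 ± 0.11 (2.05-fold; adjusted p = 6.81e-08) and fell by 0.83 ± 0.11 (adjusted p = 1.41e-06).

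For 15 of the 39 genes more than 1 probe set names the gene alone. Krt8, Dsp (its brighter 2), Spint2 and Krt14 (its brighter 2) gave the same direction wherever they were called. The dimmest Dsp probe set, with stage means from 3.14 to 3.69, was called at neither step. From E9.5 to E13.5 it was called lower (-0.55 ± 0.18), where the brighter 2 were called higher (1.02 and 0.69). Epcam and Trp63 probe sets were called in opposite directions at the second step, and the dimmest Krt14 probe set, with stage means from 3.43 to 3.81, rose at the first step by 0.38 ± 0.13 and was not called at the second.

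**Figure D4:**
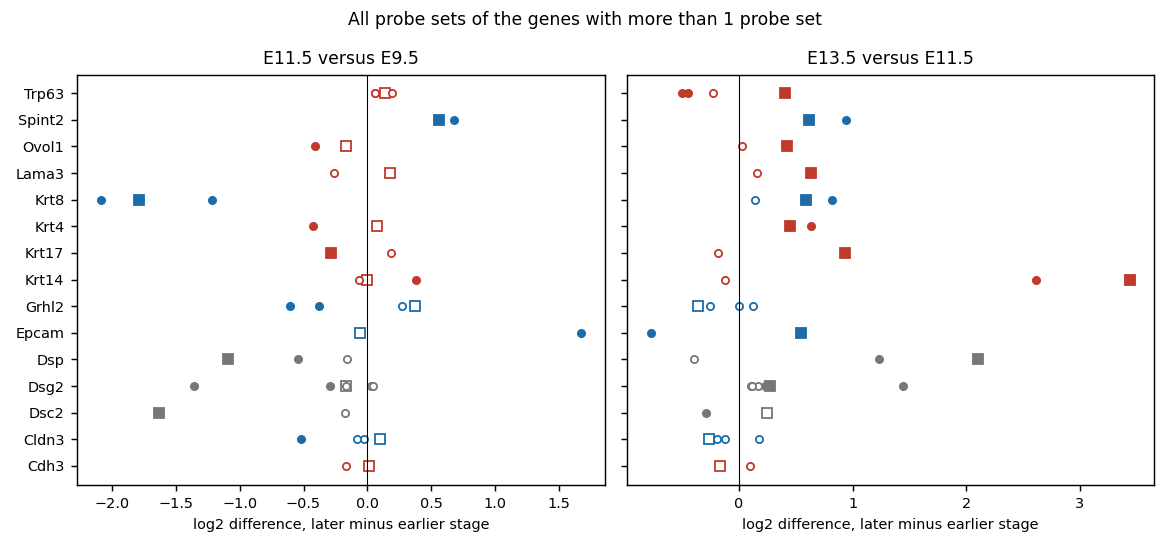
Log2 differences between consecutive stages for every probe set of the 15 genes with more than 1 (square, the brightest, used in the counts; circles, the others; open, not called). Epcam lies on both sides of 0 in the left and right panels (-0.05 and 1.67, then 0.54 and -0.78), as do the Trp63 probe sets on the right.

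Samples 13 and 15 of E9.5, apart on the third principal component, were above all other E9.5 arrays for 9 of the 39 genes (Krt5, Krt8, Krt18, Cdh1, Grhl2, Dsp, Pkp1, Prss8 and Col17a1) and below them for 0, where the shares over all genes were 18.1% and 12.5%. Krt8 stood at 9.36 and 9.13 in them against 8.04 to 8.52 in the others, and Dsp at 7.95 and 7.91 against 6.97 to 7.38. Without both samples 7 genes rose and 14 fell between E9.5 and E11.5, with Grhl2 and Col17a1 now among the risers. Between E9.5 and E13.5, Itgb4 was then no longer called (0.30, adjusted p = 0.0949). The falls of the simple keratins, Cdh1, Dsp, Dsc2 and Prss8 remained called. Within E13.5, the samples titled B62 and B63 did not overlap for Krt19 (B62 above) and Trp63 (B63 above), 2.56% of the group in each direction, where the shares over all genes were 4.92% and 3.79%.

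**Figure D5:**
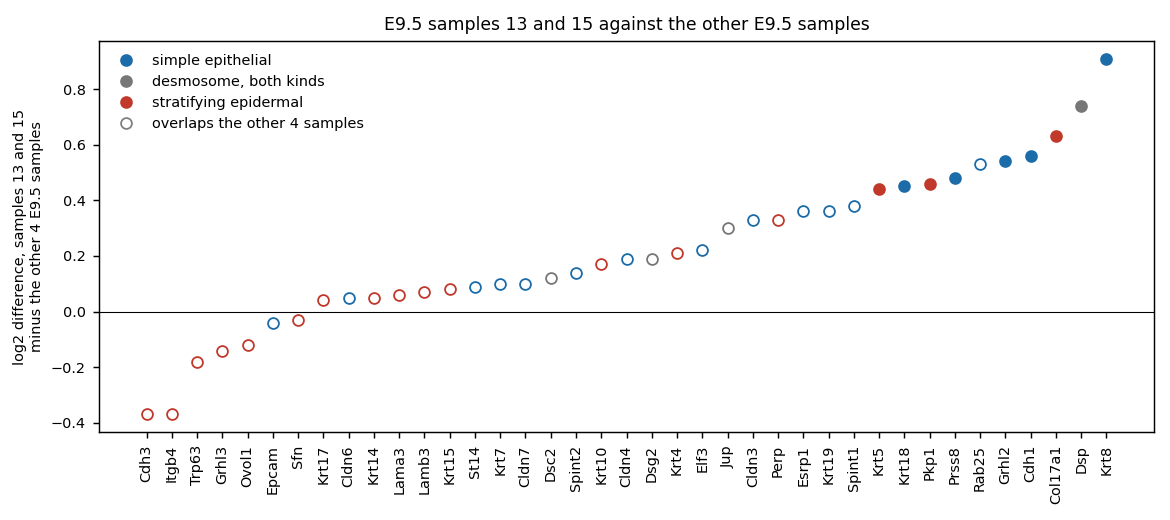
Mean log2 difference of E9.5 samples 13 and 15 from the other 4 E9.5 samples for each gene, coloured by class; filled points are genes for which both samples lay above all 4 others. Krt8 (0.91) and Dsp (0.74) are farthest up among the 9 filled points.

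A wider list of other epithelial and epidermal genes was set beside the group. Of 66 listed, 60 were measured. Of these, 15 rose and 11 fell at the first step and 16 rose and 13 fell at the second, with medians of 0.12 and 0.01. Over all genes 31.0% rose and 26.9% fell at the first step, and 27.9% and 27.0% at the second. Each share of the list was below that of all genes. Unlike the group, the list showed no excess over all genes of falls at the first step or rises at the second. The genes named below were picked for the size of their change and do not stand for the list. At the first step Tmprss2, another membrane serine protease, rose by 2.99 ± 0.18 (adjusted p = 4.27e-11) and Gjb2, a gap junction connexin, by 1.98 ± 0.11, with Tfap2b (1.18) and Ppl (0.92). Plakophilin 2 (Pkp2), the plakophilin of simple epithelium, fell by 2.55 ± 0.15 (adjusted p = 3.30e-11), and the tight junction genes Marveld2 and Cgn fell by 1.15 and 0.91. Krt13 (-0.76) was under the array lower quartile in both stages, with means of 3.56 and 2.80. For listed genes with several probe sets, such as Tmprss2 and Pkp2 (4 each), only the brightest was used.

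At the second step Klf4, a factor of the epidermal barrier, rose by 3.12 ± 0.12 (8.7-fold; adjusted p = 1.93e-14) and Dst, whose epithelial form binds keratin to hemidesmosomes, by 2.07 ± 0.10. Trim29 and Klf5, both known from basal epithelium, rose by 1.76 and 1.39. Tmprss2 fell by 2.04 ± 0.18, and Epn3, Lsr and Tgm3 by 0.76, 0.72 and 0.57. At E13.5, 7 of the 60 measured genes were under the array lower quartile (Krt6b, Krt13, Krt16, Itgb6, Dsg1a, Dsc1 and Flg). Filaggrin (Flg), Dsg1a and Dsc1, known from the outer layers of mature epidermis, were so in every stage. The rest of the list was over that mark at E13.5, with Tgm3 at a mean of 4.51. Klf4 and Dst are expressed in other head tissues too, and their part in the epithelium was not tested.

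Markers of other head tissues moved across the same stages, and their part in the results above was not tested. Over all genes, 31.0% were called higher and 26.9% lower at the first step. At the second step these shares were 27.9% and 27.0%. The counts of each list from here on are to be read against those shares. Mean log2 intensity over the 16 mesenchyme genes, of which 11 rose and 2 fell at the first step and 8 rose and 3 fell at the second, ran from 8.74 to 8.96, from 9.53 to 9.59 and from 9.93 to 10.04 in stage order. Over the 8 neural genes, with 6 higher and 1 lower and then 3 higher and 4 lower, it ran from 7.55 to 8.42, from 9.73 to 9.84 and from 9.55 to 9.77. Both lists were thus lowest at E9.5, where the simple class was highest, with Col1a1 (3.61) and Dcx (4.66) the largest first rises.

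Other lining epithelia share simple keratins with the surface. Of 11 measured genes of foregut and pharyngeal endoderm 4 rose and 4 fell at the first step and 1 rose and 5 fell at the second, with Foxa2 falling at both (by 0.81 and 0.98). The list mean was 5.59 to 5.77, 5.72 to 5.89 and 5.33 to 5.39, and Spink1 fell by 1.51 to under the lower quartile. For 8 measured genes of placode, otic and olfactory epithelium the counts were 3 higher and 4 lower, then 2 higher and 4 lower, with means of 7.11 to 7.35, 7.04 to 7.31 and 6.93 to 7.09. The 4 measured notochord genes gave 2 higher and 1 lower, then 0 higher and 3 lower, and the 9 of extraembryonic endoderm 2 and 2, then 1 and 2, with Ttr, also a choroid plexus gene, the largest riser (4.22, then 2.40).

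Choroid plexus genes (8) gave 4 higher and 3 lower, then 5 and 2. Lens genes (8), which also derive from surface ectoderm, gave 4 and 2, then 5 and 2, with means of 4.15 to 4.47, 4.26 to 4.49 and 5.78 to 6.07, and Cryba1 rose by 4.67 at the second step. The 8 heart muscle genes, several of them shared with embryonic head muscle, gave 2 and 3, then 5 and 1, with means of 3.77 to 3.99, 3.63 to 3.79 and 5.28 to 5.59, and Myl4 rose by 4.40. Of 5 measured blood genes 3 rose and 1 fell, then 0 rose and 4 fell, with Hbb-bh1 down by 4.35. The lens, heart muscle and stratifying class means were thus all higher at E13.5 than at E11.5, a comparison that also spans both kits. The 27 poly-A spike-in probe sets, which track sample handling, had means of 7.55 ± 0.22, 5.38 ± 0.13 and 5.12 ± 0.10 (SD) in stage order, so that handling differed between E9.5 and E11.5 as well.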

How the data were processed

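The deposited table holds whole-number intensities of probe sets on a linear scale, made by RMA per the submitters' processing notes; the sources used here name neither its version nor its settings. RMA makes array distributions alike, so values are relative to other transcripts. The log2 of each value was taken. Of 45101 probe sets, 64 were controls, 34945 named exactly 1 gene, 932 several and 9160 none in the annotation used; symbols were checked through RefSeq identifiers (0 changed, 204 unmatched). Each of 18193 genes was represented by its brightest probe set over 16 arrays.

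Stage differences came from limma 3.58.1 (R 4.3.3), with all arrays in 1 model, a mean for each stage, and Benjamini-Hochberg adjustment over all genes within each comparison; the script was tested on simulated data. Called means an adjusted p under 0.05; ± is the SE of a difference, or the SD where marked. Array number limits the precision; no read depth exists. Values by array are given for the keratins and for members called with a change of at least 1 (log2) between consecutive stages; from each list up to 4 genes with the largest called rise and fall were eligible to be named, and only some of these are. Snai and Zeb genes were picked for the E-box, after values were seen. The members, classes and lists were chosen with earlier results of these data known. Neighbouring genes were compared by two-sided exact permutation tests. Alternatives covered the log offset, normalization, probe set choice, a filter, the variance model, weights, the title prefix as a block, and left-out samples.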

Additional observations from a re-analysis of the deposited data

Results flagged for a closer look

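In 5 of 117 groups of 4 or 6 arrays, 1 array stood apart from the rest of its stage by Dixon's 95% limit, which chance alone passes in about 1 of 20 groups. Krt17 in E9.5 sample 22 was 3.00 where the others were at 3.17, and in E11.5 sample 52 it was 3.00 where the others were at 2.81; each is a step of 1 in rounded intensity. Krt7 in E9.5 sample 19 was 5.86 where the others lay between 6.77 and 7.16. Epcam in E13.5 sample B62E8K was 8.52 where the others lay between 8.31 and 8.35. Spint2 in E9.5 sample 15 was 7.54 where the others lay between 7.21 and 7.29.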

How the results depend on the processing

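Of 76 calls in the 3 comparisons, 59 held under every alternative that could be run for them, and 17 were lost or turned under at least 1. Leaving out each array in turn turned the sign of 0 called differences and of 35 differences called neither before nor after; across these fits 5 to 6 genes rose and 14 to 17 fell between E9.5 and E11.5, 19 to 22 and 5 to 6 between E11.5 and E13.5, and 15 to 16 and 14 to 15 between E9.5 and E13.5. Quantile normalization, median centring and log2(value + 8) changed 0 calls. The choice of probe set mattered most. With the second-brightest probe set, which 15 genes have, 2 rose and 6 fell between E9.5 and E11.5, 6 and 2 between E11.5 and E13.5, and 4 and 4 between E9.5 and E13.5, where the brightest probe sets of the same 15 gave 1 and 4, 11 and 0, and 8 and 2. Among differences called with either probe set it turned the sign of Krt17 (0.19 and -0.18 in the consecutive comparisons), Krt4 (-0.43 at the first), Cldn3 (-0.52 at the first), Epcam (1.67 and -0.78), Trp63 (-0.23 at the second and -0.038 from E9.5 to E13.5), Dsc2 (-0.29 at the second), Ovol1 (-0.39 from E9.5 to E13.5) and Lama3 (-0.10 from E9.5 to E13.5). The mean of all probe sets likewise turned Krt4 (-0.18 at the first), Epcam (0.81 and -0.12), Trp63 (-0.19 at the second and -0.081 from E9.5 to E13.5) and Grhl2 (-0.21 from E9.5 to E13.5); the cause was not tested. It also turned 6 differences that were called in neither fit, among them Grhl2 (-0.09), Cldn3 (-0.13) and Cdh3 (-0.08) at the first step, and the second-brightest probe set turned 5 such and the remaining alternatives 5. With the E13.5 title prefix as a random block, Dsg2, Ovol1 and Itgb4 were no longer called at the second step, nor Lamb3 and Itgb4 from E9.5 to E13.5. Rab25 (first step) lost its call in 9 alternatives, Itgb4 (second step) in 8 and Dsg2 (second step) in 6. The fall of Spint1 was also lost without E11.5 sample 52 (-0.38, adjusted p = 0.0579). No paired analysis was possible because the stages share no sample numbers.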

Other observations

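Members that lie within 100000 bases of each other were compared in their changes, a comparison chosen after the values were seen (8 pairs, 16 two-sided exact permutation tests over arrays, adjusted over all 16; the smallest p for 4 against 6 arrays is 0.00952). Krt15 and Krt19 lie 4860 bases apart on chromosome 11, and the change of Krt15 exceeded that of Krt19 by 0.90 at the first step (adjusted p = 0.0381) and by 3.56 at the second (adjusted p = 0.019). Krt8 and Krt18, 23873 bases apart on chromosome 15, fell together, but the fall of Krt18 was the deeper, by 0.67 (adjusted p = 0.019). Cdh3 and Cdh1, 46438 bases apart on chromosome 8, differed by 1.17 at the first step (adjusted p = 0.0381), where Cdh1 fell and Cdh3 was not called, and were not shown to differ at the second (-0.77, adjusted p = 0.0653). Cldn4 and Cldn3, 39279 bases apart on chromosome 5, were not shown to differ at the first step (0.03, adjusted p = 0.905). The change of Cldn4 was lower by 0.63 at the second (adjusted p = 0.0381). These tests used only the brightest probe set of each gene. At the first step the second-brightest probe sets of Cldn3 and Krt8 gave -0.52 and -2.09, where the brightest gave 0.10 and -1.79.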
